A study of Mus musculus with 72 samples.

Results

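The suprachiasmatic nucleus (SCN) of mice kept in constant darkness (DD) was compared between a diet without tryptophan (-Trp) and a control diet (Ctrl) over the subjective day, that is at circadian times (CT) 0, 4 and 8 h. The comparison holds 18 of the 72 SCN libraries, 9 Ctrl DD and 9 -Trp DD, with 3 mice per diet and time point. All were male C57BL/6 mice, aged 8 weeks at the start, housed alone for 1 week in DD and then fed the -Trp diet or a control diet of matched nitrogen for 2 weeks with free access to food. Each library is bulk mRNA of a whole dissected SCN, so fewer cells of a type and less RNA per cell cannot be told apart. The level of a gene is given in FPKM, the number of sequenced fragments scaled to transcript length and to the size of the library. This unit keeps no fragment number, so sequencing depth cannot be stated, and precision was judged from the spread between mice.

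The libraries were chosen by the order of the columns in the study's supplementary table of rhythms, because the names of the deposited columns are shifted against it. The 9 Ctrl columns hold the same values as that table in 124 to 133 genes each, with 100% of values equal. The 9 -Trp columns were placed by continuing the same shift of 12 columns. The -Trp sheets of that table were shortened in the copy used here, so this placement was not checked. With the columns taken as named, other libraries enter the comparison. By the placement used here, those named Ctrl DD at 0, 4 and 8 h are -Trp DD at CT8, CT12 and CT16. Those named -Trp DD are Ctrl libraries of a light-dark cycle at 8, 12 and 16 h. The diets are then exchanged and the light schedule differs between them. In that comparison, 9 of the 37 genes called below kept their sign.

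Tryptophan is an essential amino acid and the precursor of serotonin, of the kynurenines and, through them, of NAD. Serotonin fibres from the raphe reach the SCN, whose neurons keep circadian time through a transcriptional loop of the activators Clock and Arntl and the repressors Per and Cry. In constant darkness no light resets this loop, and the clock runs on its own period. Lack of an essential amino acid is known to act on cells through the transcription factor ATF4, which raises amino acid synthesis and transport genes.

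A total of 14462 genes had a mean of at least 0.5 FPKM and were tested with limma across the 18 libraries, with time as a factor. At an adjusted p under 0.05, 12 genes (0.083% of those tested) were higher and 25 (0.173%) were lower on -Trp. Their differences were small, with an absolute log2 difference from 0.20 to 1.43 and a median of 0.35, while the median difference of all genes was 0.01. At an unadjusted p under 0.05, 10.6% of all genes were higher and 9.56% were lower. The 9 -Trp values, in FPKM as deposited, lay wholly outside the 9 Ctrl values for 12 of the 37 called genes. Over all genes tested this held for 0.138% in either direction. The calls rest on the same libraries, so a higher share among called genes follows in part from the choice. When a single library was left out, between 9 genes (without Ctrl CT4 replicate 2) and 195 genes (without -Trp CT8 replicate 3) were called. The 9 that were called without any single library were Phyhd1, Srsf11, Gpr17, Scd1, Scd2, Fads2, Kcnj10, Hsd11b1 and Ola1, and all 37 kept their sign. The libraries left in are among those that chose the 37, so the kept sign follows in large part from the choice. In 1 fit for all 72 libraries, Hsd11b1 and Fads2 did not pass (limma adjusted p = 0.219 and 0.148). The 12 and 25 genes come from a fit without a replicate block. With the replicate numbers as a block, limma called 177 genes higher and 238 lower, with all 37 among them. Whether same-numbered mice are pairs is not known. Where a gene or list below did not pass, this refers to the fit without the block.

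A few libraries stood apart. Both CT0 libraries of replicate 1 had arcuate marker sums of 17.1 and 31.0 FPKM, against 148 to 636 FPKM in the other 16, and tanycyte marker sums of 6.33 and 6.46 FPKM, against 12.4 to 52.2 FPKM. The SCN marker sum of the Ctrl library among them was 172 FPKM, against 291 to 819 FPKM in the other 16. The -Trp library of CT4 replicate 2 had an FPKM total of 411944, against 317417 to 344865 in the other 17. In the Ctrl library of CT4 replicate 3 the choroid plexus marker sum was 304 FPKM, against 10.2 to 56.2 FPKM in the other 17. Both CT4 libraries of replicate 1 had mural and fibroblast marker sums of 101 (Ctrl) and 111 FPKM (-Trp). In the other 16 these sums were 30.5 to 54.2 FPKM. The SCN markers themselves did not pass the test (0 of 12). Without the 2 CT0 libraries, 46 genes were higher and 56 lower, and the 37 genes were all among them. Leaving out these libraries was chosen after seeing the data.

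The largest shift by its error was in Phyhd1, which encodes a dioxygenase related to phytanoyl-CoA hydroxylase and depends on 2-oxoglutarate. The gene lies at chr2:30266203-30282149 on the plus strand of mm10, where the annotation also places the gene models Gm28035 and Gm28038 on the same strand. Its level in the 9 Ctrl libraries ran from 12.4 to 15.6 FPKM with a median of 13.4. In the 9 -Trp libraries it ran from 19.3 to 33.0 FPKM with a median of 22.3. Every -Trp library was above every Ctrl library, and the log2 difference was 0.74 ± 0.07 (SE, n = 9 and 9), a rise of 67.0% (limma adjusted p = 6.19e-05). The difference was 0.74 at CT0, 0.85 at CT4 and 0.63 at CT8, and CT4 alone passed the test (limma adjusted p = 0.0274).

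Srsf11, a serine/arginine-rich splicing factor, rose from a Ctrl range of 25.1 to 29.4 FPKM to a -Trp range of 31.3 to 38.3 FPKM. The medians were 27.4 and 34.8 FPKM and the ranges did not overlap. The log2 difference was 0.34 ± 0.05 (SE, n = 9 and 9, limma adjusted p = 0.00275). Ccnl1, a cyclin that works with the splicing machinery, rose by 0.20 on the log2 scale (limma adjusted p = 0.0469). Of the 35 genes in the list of CDC-like kinases and splicing regulators, Srsf11 was the one that was called. That list had 7 members higher and 3 lower at an unadjusted p under 0.05, with a median difference of 0.06.

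Cdkn1a, the cell cycle inhibitor p21 and a gene induced by p53 and by glucocorticoids, rose from a Ctrl median of 2.44 FPKM (1.46 to 3.40) to a -Trp median of 3.78 FPKM (2.67 to 4.69). The ranges overlapped, and 7 of 9 -Trp libraries were above all Ctrl libraries. Its Ctrl level was lowest at CT4, with 1.68 ± 0.25 FPKM (SD, n = 3), where the -Trp level was 3.11 ± 0.50 FPKM. The log2 difference over the day was 0.48 ± 0.09 (SE, n = 9 and 9, limma adjusted p = 0.0244).

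**Figure D1:**
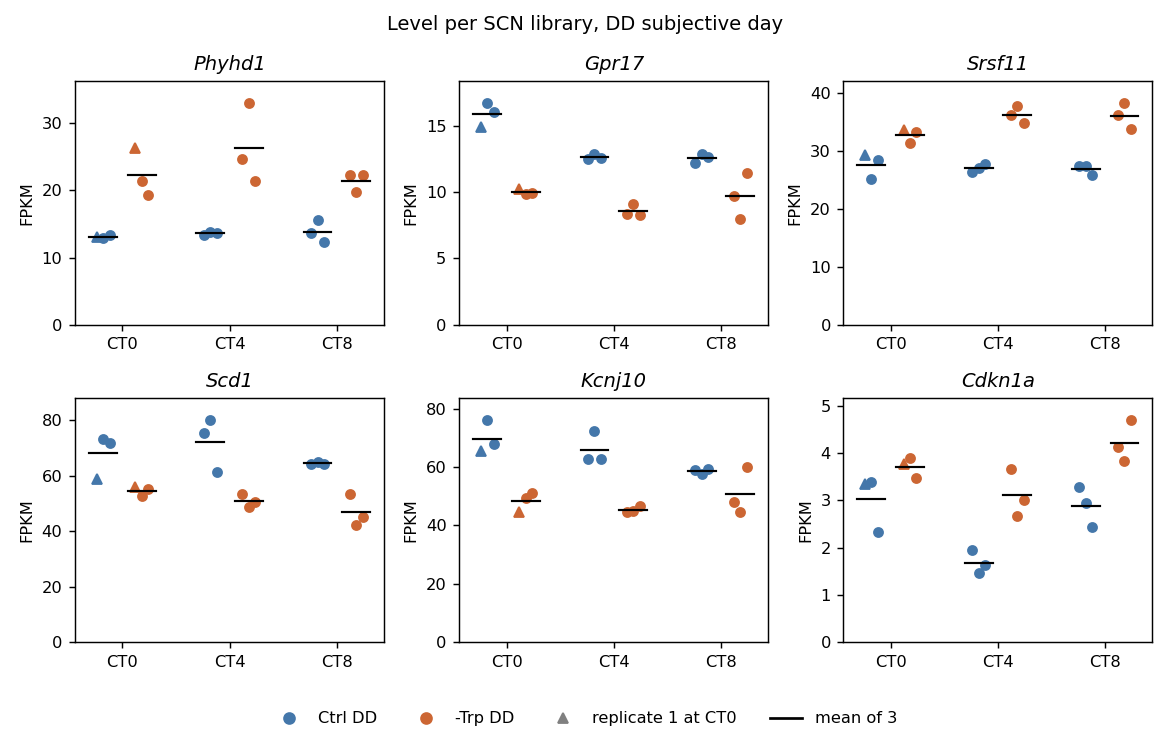
Level in FPKM (y axis, from 0) of 6 called genes in each SCN library at CT0, CT4 and CT8 (x axis), Ctrl DD in blue and -Trp DD in orange, with a line at the mean of 3 libraries and triangles for replicate 1 at CT0. The -Trp points of Phyhd1 (19.3 to 33.0 FPKM) sit above all Ctrl points and those of Gpr17 (7.98 to 11.4 FPKM) below them, while Kcnj10 and Cdkn1a overlap in part.

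The other genes that rose have varied roles. Prdx4, a peroxidase of the endoplasmic reticulum, went from a Ctrl median of 16.8 to a -Trp median of 21.6 FPKM (log2 difference 0.35 ± 0.06, limma adjusted p = 0.0244). Kdelr2, the receptor that returns chaperones to the endoplasmic reticulum, had ranges that did not overlap, 14.8 to 17.01 FPKM on Ctrl and 17.1 to 22.9 FPKM on -Trp (0.21 ± 0.04, limma adjusted p = 0.0246). Prodh, which starts proline breakdown in mitochondria, rose by 27.0% (limma adjusted p = 0.0435). Rpf1, a factor for building the large ribosomal subunit, rose by 20.9% (limma adjusted p = 0.0201). The remaining called genes were Tusc1, Ggnbp2, the uncharacterised 2310033P09Rik and the predicted gene Gm8773. Gm8773 had the largest log2 difference among the 37 called genes, 1.43 ± 0.29 (SE), but from a low level, with Ctrl values of 0.0715 to 0.899 FPKM and -Trp values of 0.417 to 4.64 FPKM.

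Gpr17, a receptor of oligodendrocyte precursors as they start to differentiate, fell most clearly. Its 9 Ctrl libraries held 12.2 to 16.7 FPKM (median 12.9), and its 9 -Trp libraries 7.98 to 11.4 FPKM (median 9.70). No -Trp library reached the lowest Ctrl library. The log2 difference was -0.53 ± 0.05 (SE, n = 9 and 9), a change of -30.8% (limma adjusted p = 0.000116). It was -0.64 at CT0 (limma adjusted p = 0.0197), -0.60 at CT4 (limma adjusted p = 0.0274) and -0.36 at CT8 (limma adjusted p = 0.472). In the genome Gpr17 overlaps Lims2 on the other strand. The library kit keeps the strand, but whether the counting used it is not given in the sources used here.

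Gpr17 was the only called gene among 10 oligodendrocyte precursor markers. Pdgfra, which marks the precursors before that stage, was at a median of 12.0 FPKM on Ctrl and 11.5 FPKM on -Trp (log2 difference -0.06, limma adjusted p = 0.603). Sox10 (-0.23, limma adjusted p = 0.233) and Olig1 (-0.16, limma adjusted p = 0.318) did not pass, and the median of the 10 markers was -0.17. The summed level of these markers ran from 101 to 125 FPKM on Ctrl and from 86.3 to 118 FPKM on -Trp. Of 12 markers of mature oligodendrocytes, which make myelin, 0 were called, 10 had negative differences and the median was -0.18. Without both CT0 libraries of replicate 1, 1 of these markers was called lower, and without -Trp CT4 replicate 2 as well, 3 were. In these 2 sets, chosen after seeing the data, 56 and 201 of all genes tested were called lower. The sum of the 12 markers varied widely, from 1379 to 2372 FPKM on Ctrl and from 969 to 2395 FPKM on -Trp, and its part in the level of Gpr17 was not tested.

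**Figure D2:**
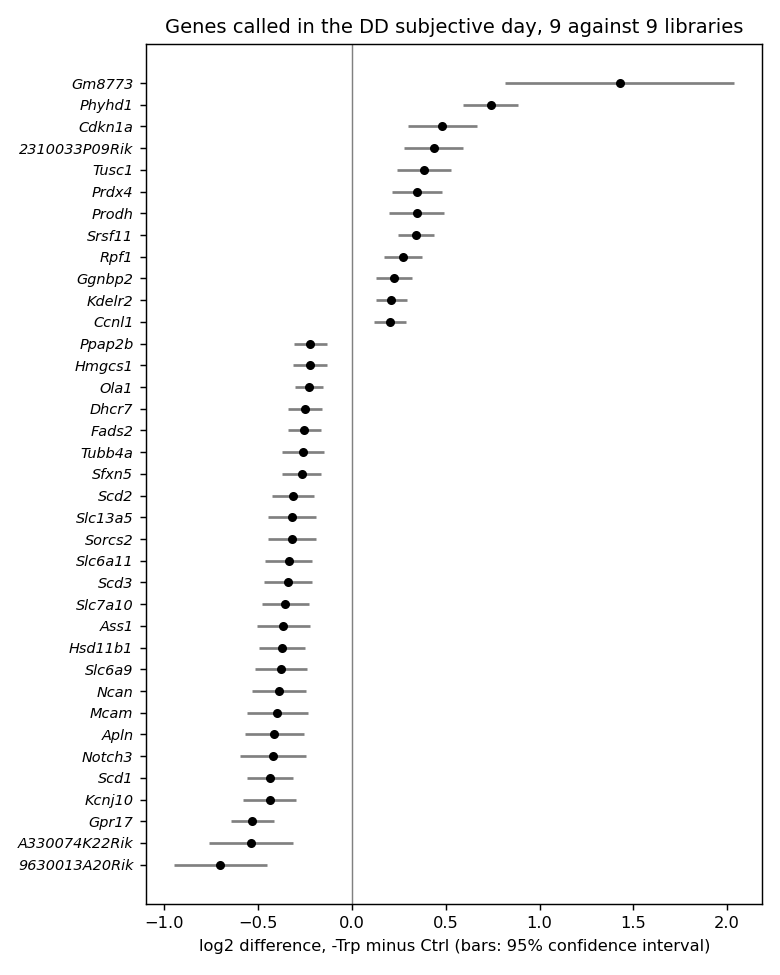
Log2 difference, -Trp minus Ctrl (x axis), of the 37 called genes (y axis) with 95% confidence intervals from limma over 9 and 9 libraries. Most differences lie between 0.20 and 0.54 in size, Gm8773 has the widest interval (0.82 to 2.04), and Phyhd1 and Gpr17 stand out with 0.59 to 0.89 and -0.65 to -0.42.

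Genes of fatty acid desaturation and of sterol synthesis made up 6 of the 25 that fell. Stearoyl-CoA desaturases put the double bond into newly made fatty acids, and Fads2 and Fads1 desaturate the polyunsaturated ones. Scd1 held 59.0 to 80.0 FPKM (median 64.9) on Ctrl and 42.3 to 55.9 FPKM (median 52.8) on -Trp. Every -Trp library was below every Ctrl library, with a log2 difference of -0.44 ± 0.06 (SE, n = 9 and 9, limma adjusted p = 0.00275). Scd2, the main desaturase of brain, held 345 to 444 FPKM on Ctrl and 278 to 343 FPKM on -Trp, again without overlap (-0.31 ± 0.05, limma adjusted p = 0.0186). Scd3 held 1.48 to 1.97 FPKM on Ctrl and 1.08 to 1.42 FPKM on -Trp (-0.34 ± 0.06, limma adjusted p = 0.0201). The Scd genes lie side by side on chromosome 19 and are similar in sequence, so part of their reads may be shared, which makes Scd3, the lowest of them, uncertain on its own.

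Fads2, the delta-6 desaturase, lies at chr19:10062765-10101746 on the minus strand. It held 75.4 to 87.7 FPKM on Ctrl and 61.0 to 75.1 FPKM on -Trp, without overlap (log2 difference -0.25 ± 0.04, limma adjusted p = 0.0163). Hmgcs1, which makes HMG-CoA at the head of the sterol pathway, lies at chr13:119690379-119708260 on the plus strand. It fell from a Ctrl median of 65.1 FPKM to a -Trp median of 55.2 FPKM (-0.22 ± 0.04, limma adjusted p = 0.0391). Dhcr7, which makes cholesterol in the last step, fell from 12.2 to 10.1 FPKM (-0.25 ± 0.04, limma adjusted p = 0.0201). For these 2 genes the ranges overlapped, with 8 of 9 and 4 of 9 -Trp libraries below all Ctrl libraries.

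Over the list of 21 sterol genes, 2 were called lower and 0 higher, 20 had negative differences and 12 were lower at an unadjusted p under 0.05, with a median difference of -0.15. Over 13 genes of fatty acid synthesis and binding, 3 were called lower, 12 had negative differences and 8 were lower at an unadjusted p under 0.05, with a median of -0.22. Scd3 is not on that list. Of all genes tested, 47.6% had negative differences. Fasn (-0.37) and Srebf2 (-0.31) each had a limma adjusted p of 0.0536. They encode fatty acid synthase and the transcription factor that controls sterol synthesis. Without both CT0 libraries of replicate 1, both passed (limma adjusted p = 0.00717 and 0.0329). Msmo1, a demethylating enzyme of the same sterol pathway, held a median of 40.8 FPKM on Ctrl and 41.6 FPKM on -Trp, with a 95% confidence interval of the log2 difference from -0.13 to 0.12. Fabp7, a fatty acid carrier of glia, varied widely within each diet, from 23.5 to 90.2 FPKM on Ctrl and from 14.8 to 112 FPKM on -Trp.

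**Figure D3:**
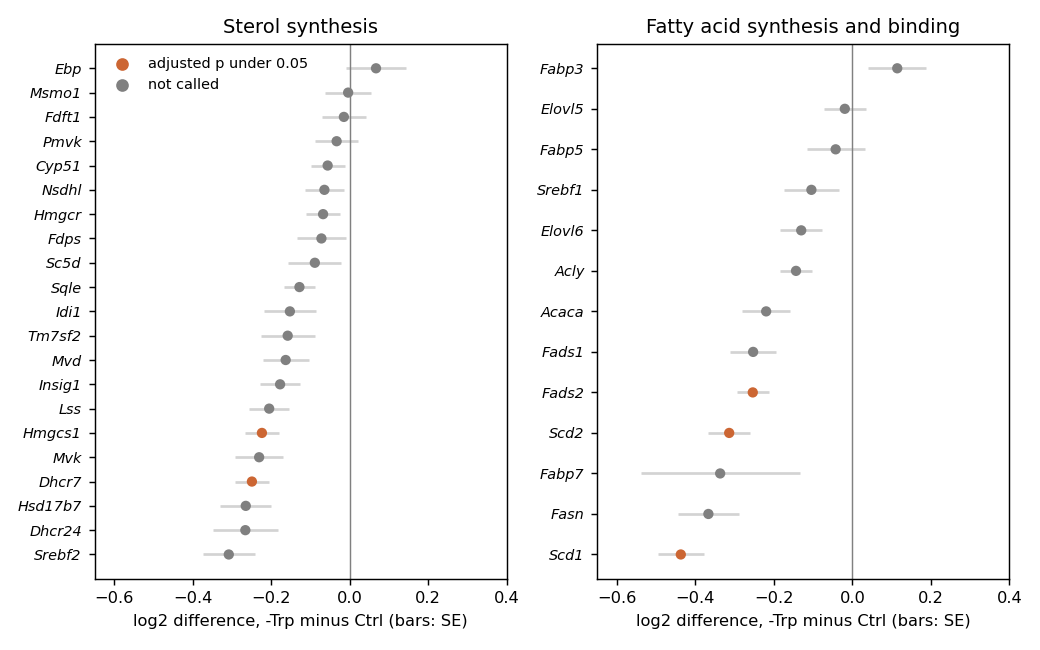
Log2 difference, -Trp minus Ctrl (x axis), of 21 sterol genes (left) and 13 genes of fatty acid synthesis and binding (right), with bars of 1 SE and called genes in orange. Of the 34 genes, 32 lie left of 0, from Scd1 at -0.44 to Fabp3 at 0.11, and 5 passed the test.

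Promoters of 25 of these 34 genes were found in RefSeq (GRCm38.p6), as the 250 bases before and 50 after the start. They are shown for a sterol gene and a desaturase that fell, as examples of both groups. Capitals mark matches, on either strand, of the sterol regulatory element TCACNCCAC and the CCAAT box, the sites of SREBP factors and NF-Y. The Hmgcs1 promoter at chr13:119690101-119690400 (plus strand) has 5 matches, and the Fads2 promoter at chr19:10101454-10101753 (minus strand) has 0.
Hmgcs1: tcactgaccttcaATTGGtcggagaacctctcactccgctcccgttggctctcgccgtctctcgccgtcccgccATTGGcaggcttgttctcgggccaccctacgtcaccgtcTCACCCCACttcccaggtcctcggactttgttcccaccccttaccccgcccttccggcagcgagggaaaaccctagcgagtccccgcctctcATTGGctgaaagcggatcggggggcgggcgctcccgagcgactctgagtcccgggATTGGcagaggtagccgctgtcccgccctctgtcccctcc
Fads2: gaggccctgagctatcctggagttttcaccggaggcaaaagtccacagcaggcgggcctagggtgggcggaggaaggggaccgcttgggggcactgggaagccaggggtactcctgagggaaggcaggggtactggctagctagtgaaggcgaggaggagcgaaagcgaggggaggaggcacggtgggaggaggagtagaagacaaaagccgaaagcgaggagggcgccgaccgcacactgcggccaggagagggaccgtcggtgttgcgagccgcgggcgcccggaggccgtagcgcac
A CCAAT box was in 21 of the 25 list promoters (84.0%) and in 42.6% of the 10783 promoters of genes tested. The sterol regulatory element was in 1 of the 25 (4.00%), that of Hmgcs1, and in 1.43% of all. Among called genes with a promoter, the CCAAT box was in 8 of 20 that fell and 1 of 10 that rose. The E-box CACGTG was in 5 of the 25 (20.0%) and in 11.5% of all. The C/EBP-ATF response element TGATGNAAT and the D-box TTATGTAA were in 0 of the 25, and in 0.547% and 0.705% of all. A match describes letters and is no evidence of binding.

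Kcnj10, the inward-rectifier potassium channel of glia, held 57.7 to 76.0 FPKM (median 63.0) on Ctrl and 44.5 to 60.2 FPKM (median 46.8) on -Trp. All but 1 -Trp library, a CT8 library, were below the lowest Ctrl library (log2 difference -0.44 ± 0.07, limma adjusted p = 0.0117). Slc7a10, a carrier of small neutral amino acids and D-serine, fell from a median of 20.9 to 16.1 FPKM (-0.35 ± 0.06, limma adjusted p = 0.0186). Slc6a9, the glycine transporter GlyT1, fell from 28.9 to 22.6 FPKM (-0.38 ± 0.07, limma adjusted p = 0.0201). Slc6a11, the GABA transporter GAT-3, fell from 204 to 153 FPKM (-0.34 ± 0.06, limma adjusted p = 0.0206). Sfxn5, a mitochondrial carrier, and Slc13a5, a citrate carrier, fell by 16.9% and 19.8% (limma adjusted p = 0.0258 and 0.0324).

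Several of these genes are known from astrocytes, but the 9 astrocyte markers were not lower as a list, with 0 called, 6 positive differences and a median of 0.09. The glutamate transporter Slc1a3 held 160 to 184 FPKM on Ctrl and 173 to 192 FPKM on -Trp (log2 difference 0.04, limma adjusted p = 0.603). Slc1a2, the other astrocytic glutamate transporter, was at -0.21 (limma adjusted p = 0.229), with -0.52 at CT4 and -0.05 at both CT0 and CT8.

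The other genes that fell included Hsd11b1, the enzyme that regenerates active corticosterone inside cells, from a median of 6.64 to 4.93 FPKM (log2 difference -0.37 ± 0.06, limma adjusted p = 0.0121). Ola1, an ATPase of the Obg family, held 34.2 to 37.1 FPKM on Ctrl and 28.4 to 33.5 FPKM on -Trp without overlap (-0.23 ± 0.04, limma adjusted p = 0.0126). Ncan, the extracellular matrix proteoglycan neurocan, fell by 23.6% (limma adjusted p = 0.0201). Ass1, argininosuccinate synthase, fell by 22.3% (limma adjusted p = 0.0273). Also lower were Apln (the peptide apelin, -0.41), Mcam (an adhesion molecule, -0.40) and Notch3 (a receptor of mural cells, -0.42), with limma adjusted p of 0.0238, 0.0342 and 0.0407. The lists of 7 endothelial and 9 mural and fibroblast markers had 0 called, with medians of -0.15 and 0.07. Of the 7 endothelial markers 6 had negative differences and 3 were lower at an unadjusted p under 0.05, and their part in the levels of these 3 genes was not tested. Sorcs2, Ppap2b, Tubb4a and the long noncoding RNAs 9630013A20Rik and A330074K22Rik completed the 25. 9630013A20Rik lies antisense to Pcdh17, so reads of the other strand would count against it if strand was not used.

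The lack of an amino acid is classically read out by ATF4 targets, and here most of them did not pass the test. Of 30 members tested, 0 were called higher and 1, Slc6a9, lower. At an unadjusted p under 0.05, 5 were higher and 4 lower, with a median of 0.04. Asns, asparagine synthetase and a standard ATF4 target, held 32.6 to 37.5 FPKM on Ctrl and 35.4 to 52.4 FPKM on -Trp, and 7 of 9 -Trp libraries were above all Ctrl libraries, yet it did not pass (log2 difference 0.16 ± 0.06, limma adjusted p = 0.165). Atf4 itself was at 0.11 ± 0.06 (limma adjusted p = 0.276) and Phgdh, of serine synthesis, at 0.02 ± 0.06 (limma adjusted p = 0.902). Of 20 aminoacyl-tRNA synthetases, which load amino acids onto tRNAs, 0 were called. Wars, the enzyme for tryptophan, held 24.2 to 29.1 FPKM on Ctrl and 21.7 to 32.2 FPKM on -Trp, with a 95% confidence interval of the log2 difference from -0.18 to 0.06.

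Of 20 amino acid transporters, Slc7a10 was called, and 9 were lower and 0 higher at an unadjusted p under 0.05, with a median of -0.14. Slc38a3, a glutamine transporter, missed the threshold at -0.26 ± 0.05 (limma adjusted p = 0.0518) and passed without both CT0 libraries of replicate 1 (limma adjusted p = 0.0339). Slc7a5, the light chain of the carrier LAT1 that brings tryptophan into brain, was at -0.22 ± 0.08 (limma adjusted p = 0.155), with medians of 11.5 FPKM on Ctrl and 9.55 FPKM on -Trp.

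Genes that handle tryptophan's products did not pass either. Of 24 genes of serotonin synthesis, transport and reception, 16 were high enough to be tested and 0 were called, also at an unadjusted p under 0.05. Ddc, which makes serotonin from 5-hydroxytryptophan, held 23.9 to 31.9 FPKM on Ctrl and 27.8 to 41.5 FPKM on -Trp (log2 difference 0.06 ± 0.06, limma adjusted p = 0.537). The serotonin receptor gene Htr2c was at -0.18 ± 0.12 (limma adjusted p = 0.371) and the monoamine oxidase gene Maoa at 0.01 ± 0.05 (limma adjusted p = 0.937). Only 5 of 14 kynurenine pathway genes and 5 of 9 genes of the aryl hydrocarbon receptor reached the filter, and 0 of each were called. At an unadjusted p under 0.05, 2 of the kynurenine genes were higher and 1 lower. For the aryl hydrocarbon receptor 1 was higher and 0 lower. Of all genes tested, 10.6% were higher and 9.56% lower at that threshold. Of 21 genes of NAD synthesis and use tested, 0 were called, with 2 higher and 2 lower at an unadjusted p under 0.05. Without both CT0 libraries of replicate 1 and -Trp CT4 replicate 2, 1 was called higher and 1 lower. In that set, chosen after seeing the data, 154 of all genes tested were called higher and 201 lower.

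Most glucocorticoid-responsive genes had positive differences, 17 of the 20 tested. Cdkn1a was called, 9 were higher and 0 lower at an unadjusted p under 0.05, and the median was 0.21. Sult1a1, a sulfotransferase, ran from 2.67 to 8.53 FPKM on Ctrl and from 4.99 to 12.6 FPKM on -Trp (log2 difference 0.93 ± 0.19, limma adjusted p = 0.0518), and it passed without both CT0 libraries of replicate 1 (limma adjusted p = 0.042). The kinase gene Sgk1 was at 0.83 ± 0.26 (limma adjusted p = 0.126), Tsc22d3 (GILZ) at 0.30 ± 0.08 (limma adjusted p = 0.107), and the metallothionein genes Mt1 and Mt2 at 0.29 ± 0.08 and 0.38 ± 0.11 (limma adjusted p = 0.107 and 0.114). Blood markers had positive differences too. All 4 haemoglobin and red cell genes tested had positive differences with a median of 0.96, 3 at an unadjusted p under 0.05, and their sum ran from 204 to 1370 FPKM on Ctrl and from 360 to 2808 FPKM on -Trp. The part of blood left in the vessels in these levels was not tested.

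Of 82 cytosolic ribosomal protein genes, 0 were called, 79 had positive differences and 43 were higher at an unadjusted p under 0.05, with a median of 0.15. Their summed level ran from 27130 to 33500 FPKM on Ctrl and from 27940 to 46560 FPKM on -Trp. Without both CT0 libraries of replicate 1 and the -Trp CT4 library of replicate 2, 5 were called higher. In that set, chosen after seeing the data, 154 of all genes tested were called higher. Of 21 genes of the unfolded protein response, 0 were called and 8 were higher at an unadjusted p under 0.05. The 8 include the chaperone gene Hspa5 (0.20 ± 0.08, limma adjusted p = 0.186) and the transcription factor gene Xbp1 (0.21 ± 0.06, limma adjusted p = 0.126).

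The clock genes did not pass the test. Of 25 clock genes tested, 0 were called, and their log2 differences lay between -0.24 and 0.14 with a median of -0.08. Negative differences were found in 18 of the 25, and in 47.6% of all genes tested. At an unadjusted p under 0.05, 3 clock genes were lower and 0 higher. Ciart, a repressor of the loop also called Chrono, had the smallest adjusted p. It held 5.79 to 8.89 FPKM on Ctrl and 4.88 to 8.50 FPKM on -Trp (-0.24 ± 0.06, limma adjusted p = 0.0996). Cry2 and Bhlhe41, both repressors, were at -0.11 ± 0.05 and -0.13 ± 0.06 (limma adjusted p = 0.232 and 0.229).

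Arntl was high at CT0 and lower later in both diets, with Ctrl means of 9.24 ± 0.30, 7.81 ± 0.23 and 7.13 ± 0.63 FPKM (SD, n = 3) and -Trp means of 9.48 ± 0.16, 8.33 ± 1.18 and 8.08 ± 0.94 FPKM at CT0, CT4 and CT8. Per1 went from 9.47 ± 1.48 over 12.8 ± 1.01 to 12.97 ± 0.33 FPKM at these times on Ctrl and from 9.94 ± 1.68 over 10.4 ± 1.36 to 11.8 ± 0.87 FPKM on -Trp. Dbp, a clock output factor, was at 12.8 ± 4.35, 21.6 ± 1.23 and 22.8 ± 1.85 FPKM on Ctrl and at 12.8 ± 2.25, 21.9 ± 2.19 and 17.98 ± 3.04 FPKM on -Trp. The 95% confidence intervals of the diet difference were -0.03 to 0.19 for Arntl, -0.30 to 0.03 for Per1, -0.40 to 0.09 for Per2, -0.22 to 0.03 for Cry1 and -0.33 to 0.10 for Dbp.

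Neuropeptides of the SCN did not pass the test either, with 0 of 11 called. Avp, the peptide of the SCN shell, ran from 103 to 447 FPKM on Ctrl and from 284 to 756 FPKM on -Trp (log2 difference 0.38 ± 0.22, limma adjusted p = 0.346). Vip, the peptide of the light-receiving core, ran from 7.08 to 27.5 FPKM on Ctrl and from 1.40 to 28.4 FPKM on -Trp, with a 95% confidence interval from -0.86 to 0.88. Tac1, the precursor of substance P, was at 0.67 ± 0.17 (limma adjusted p = 0.0979). Without both CT0 libraries of replicate 1 it was called higher, by 0.63 (limma adjusted p = 0.0494).

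Among the lists the largest log2 difference was that of Agrp, one of the feeding peptides known from the neighbouring arcuate nucleus. Agrp and Npy, made together by neurons that drive feeding, had medians of 15.7 and 88.8 FPKM on Ctrl and of 68.7 and 221 FPKM on -Trp. Their log2 differences over all 18 libraries were 1.92 ± 0.71 and 1.39 ± 0.56 (SE), and neither passed (limma adjusted p = 0.165 and 0.191). Both CT0 libraries of replicate 1 were close to empty of them, with 0.184 and 0.442 FPKM of Agrp and 5.44 and 7.88 FPKM of Npy. Of the 9 -Trp libraries, 8 were above all Ctrl libraries for Agrp and for Npy.

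Without these 2 libraries, Agrp held 7.41 to 34.3 FPKM in 8 Ctrl libraries and 42.7 to 122 FPKM in 8 -Trp libraries, and Npy held 44.4 to 142 FPKM and 155 to 363 FPKM. The ranges did not overlap, and both genes were called higher, Agrp by 2.105 and Npy by 1.51 on the log2 scale (limma adjusted p = 0.00193 and 0.00659). The 2 libraries were left out after seeing their low arcuate marker sums, which include these genes. These calls thus depend on a choice made from the genes' own values. Pomc, the precursor of the satiety peptide α-MSH, did not pass over all 18 libraries, also at an unadjusted p under 0.05 (log2 difference -0.72). In the 2 CT0 libraries it held 2.32 FPKM on Ctrl and 14.3 FPKM on -Trp. In the 16 libraries without these 2, it held 84.6 to 215 FPKM on Ctrl and 37.3 to 102 FPKM on -Trp. It was called lower there, with a log2 difference of -1.10 (limma adjusted p = 0.0275). Ghrh, another arcuate peptide, held 9.71 to 39.6 FPKM and 26.1 to 49.7 FPKM. The summed level of the 6 arcuate markers, which include these 4 genes, was 148 to 636 FPKM in these 16 libraries, and the part of the dissection border in these values was not tested. In these 16 libraries, chosen in this way, Agrp was higher and Pomc lower on -Trp.

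**Figure D4:**
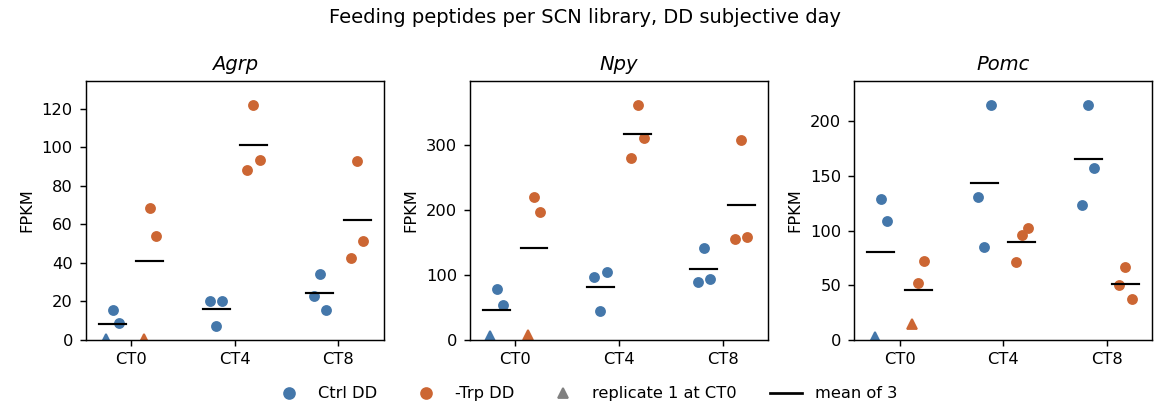
Level in FPKM (y axis, from 0) of Agrp, Npy and Pomc in each SCN library at CT0, CT4 and CT8 (x axis), Ctrl DD in blue and -Trp DD in orange, with a line at the mean of 3 libraries and triangles for replicate 1 at CT0. Apart from the triangles, Agrp is at 42.7 to 122 FPKM on -Trp and 7.41 to 34.3 FPKM on Ctrl.

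The diet difference was also asked of each time point. At CT0, 1 gene was called (0.00691% of genes tested), Gpr17, and at CT4, 2 genes (0.0138%), Phyhd1 and Gpr17. At CT8, limma called 0 genes (0%), with the smallest adjusted p at 0.0539 for Fam133b and 856 genes at an unadjusted p under 0.05. The test of whether the difference varied among the 3 time points called 0 genes by limma (smallest adjusted p = 0.393), with 507 genes at an unadjusted p under 0.05. With single libraries left out, 0 to 3 genes were called at CT0, 0 to 8 at CT4, 0 to 3 at CT8 and 0 to 1 for the variation among times. With limma's library weights, 13 were called for the variation. The counts above are from fits without a replicate block. With the replicate numbers as a block, limma called 0 genes at CT0, 335 at CT4 and 0 at CT8.

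The same diet contrast was also estimated in libraries that did not choose the 37 genes. These estimates are separate, but each 36-library fit pools its spread with the DD day libraries that chose the genes. Its adjusted p-values for the 37 are thus not wholly separate. In the subjective night of DD (CT12, CT16 and CT20, 18 other libraries), the fit over 36 DD libraries called 4.06% of all genes higher and 3.66% lower. Of the 25 genes lower in the day, 22 had the same sign at night and 15 were called lower there, with a median of -0.22. Of the 12 genes higher in the day, 8 had the same sign at night, 3 were called higher and 1 was called lower. Over all genes tested, 53.9% had positive differences at night. Phyhd1 and Gpr17 were called at night too (0.81 and -0.55, both limma adjusted p = 1.32e-05), and the test of day against night gave a limma adjusted p of 0.863 and 0.965. Scd1 (-0.36), Scd2 (-0.27), Hmgcs1 (-0.26), Dhcr7 (-0.29) and Kcnj10 (-0.37) were called lower at night too (limma adjusted p = 0.00142, 0.00636, 0.00248, 0.00372 and 0.00648). Fads2 was at -0.09 (limma adjusted p = 0.330).

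Srsf11 was the gene called higher in the day and lower at night, by 0.34 and by -0.23 on the log2 scale (limma adjusted p at night = 0.00572). The test of day against night called 44 of 14520 genes (0.303%), and 42 of them had opposite signs in the 2 periods. Of the 37 genes, 4 were among the 44, namely Srsf11 (difference 0.57 ± 0.07, limma adjusted p = 4.03e-05), Ggnbp2 (0.33, limma adjusted p = 0.00982), 2310033P09Rik (0.44, limma adjusted p = 0.0403) and Ola1 (-0.24, limma adjusted p = 0.0442).

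In the light-dark cycle (LD, 12 h of light) at the same hours, the fit over 36 libraries called 1 gene (0.00695%), Phyhd1, which was higher on -Trp there too by 0.56 (limma adjusted p = 0.00498). Of the 25 genes lower in the DD day, 14 had the same sign in the LD day, with a median of -0.04, and of the 12 higher genes 3 did, with a median of -0.02. Over all genes tested, 52.8% had positive differences in the LD day. Gpr17 was at -0.32 (limma adjusted p = 0.0776), Scd1 at -0.17 (limma adjusted p = 0.417) and Hsd11b1 at -0.55 (limma adjusted p = 0.111). The test of DD against LD called 267 of 14381 genes (1.86%), 266 of them with opposite signs in the 2 schedules. The FPKM totals of the 18 LD day libraries ran from 403066 to 492024. Those of the DD day ran from 317417 to 344865 in 17 libraries, and -Trp CT4 replicate 2, at 411944, lay within the LD range. The libraries of the 2 schedules thus differ in more than light, and the part of this in the 267 genes was not tested. Of the 37 genes, 15 were among the 267, 7 of those that rose and 8 of those that fell, including Scd3, Slc6a9, Ass1, Ncan, Prdx4 and Rpf1. The 37 were called on the same DD day libraries that enter this test and the test of day against night, so a share above that of all genes follows in part from the choice. Phyhd1, Gpr17 and Scd1 were not among the 267 (limma adjusted p = 0.397, 0.179 and 0.143). When a single library was left out, the number called against LD ran from 1 to 700.

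**Figure D5:**
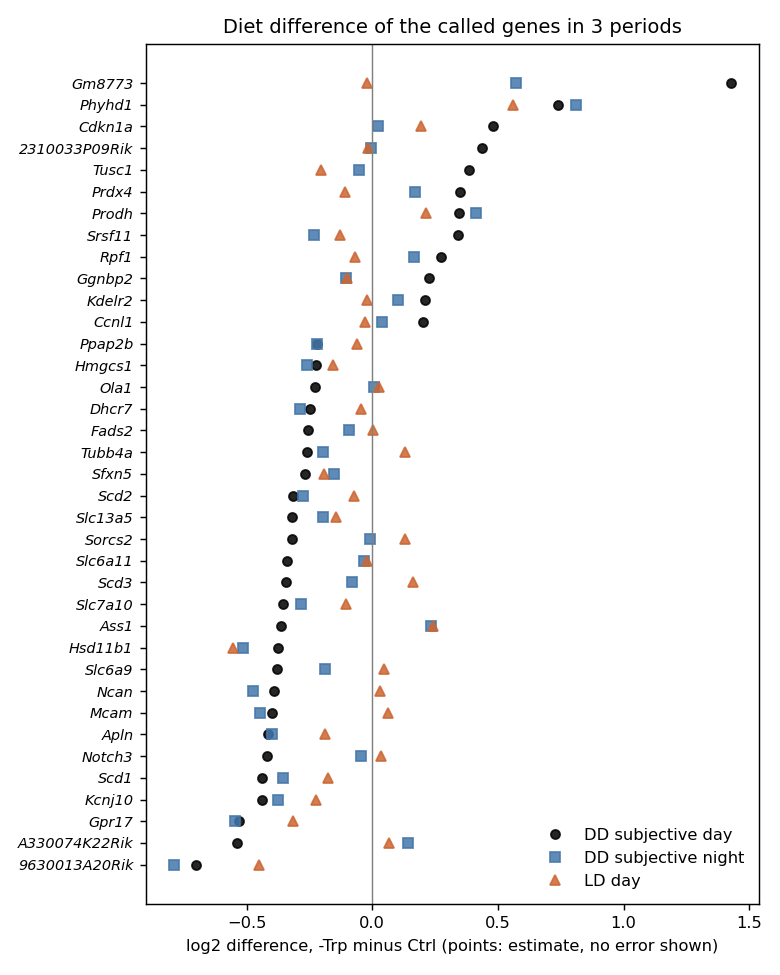
Log2 difference, -Trp minus Ctrl (x axis), of the 37 called genes (y axis) in the DD subjective day (black circles), the DD subjective night (blue squares) and the LD day (orange triangles), as estimates without errors. Phyhd1 lies right of 0 in all 3 periods (0.74, 0.81 and 0.56) and Gpr17 left of 0 (-0.53, -0.55 and -0.32), while Srsf11 is on the right in the DD day alone.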

How the data were processed

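The comparison uses RNA-seq of the SCN in 18 of 72 libraries, and the other 54 entered the scaling and, in part, the comparisons with night and LD. The authors made TruSeq stranded mRNA libraries, trimmed the reads with Trimmomatic, aligned them to mm10 (TopHat) and obtained 1 FPKM value for each gene in each library (Cufflinks), which are the values deposited. FPKM depends on composition and keeps no read number, so depth per library is unknown and counting errors cannot be stated. Each library had 18203 to 18778 rows above 0.

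Values were divided by median-of-ratios factors over all 72 libraries (0.938 to 1.058 in the 18) and tested as log2(FPKM + 0.5) with limma 3.58.1 in R 4.3.3 (lmFit, eBayes with trend, time as factor, no replicate block), keeping genes whose mean reached 0.5 FPKM. Benjamini-Hochberg adjustment ran over all genes tested, with a threshold of 0.05. A fold change on this scale understates the change of low genes. Levels, ranges, overlaps and marker sums in the text are of FPKM as deposited, without these factors. Single time points and interactions used 1 mean per group and time, over 18 or 36 libraries. The scripts were tested on simulated data. The 40 gene lists, 17 of them of cell markers, and the members were chosen with earlier results of these data known. Named were the clock genes, the 10 genes per direction with the smallest p, called list members with up to 4 uncalled members of highest level, and up to 3 genes per further test. The other called genes and Fasn, Slc38a3, Slc7a5, Wars, Sult1a1, Sgk1, Xbp1 and Fam133b were named after their values were seen. Positions are from GENCODE M21, which held 36 of 37 called genes, and promoters from RefSeq (74.6% of genes tested). Figures were drawn with matplotlib 3.10.9. Liver libraries were not analysed here, and a few list members are not reported here.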

Additional observations from a re-analysis of the deposited data

Results flagged for a closer look

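The diet difference was not the same in all periods for some genes. Between the DD subjective day and night it differed for 44 genes (limma, adjusted p under 0.05 for the interaction). The day minus night difference of the log2 diet effect was 0.573 for Srsf11, -0.64 for Akr1b3 (-0.17 in the day and 0.47 at night) and 0.343 for Pla2g15 (0.12 and -0.22). Among the other called genes it was 0.329 for Ggnbp2, 0.439 for 2310033P09Rik and -0.235 for Ola1.

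Between the DD subjective day and the LD day it differed for 267 genes by the same kind of test. The smallest p-values were those of Zbed5 (0.615, from 0.32 in DD and -0.30 in LD), Fam133b (0.412, from 0.28 and -0.13) and E030024N20Rik (0.659, from 0.30 and -0.36). Among genes that rose in the DD day, the DD minus LD difference was 0.458 for Prdx4, 0.587 for Tusc1, 0.325 for Ggnbp2, 1.45 for Gm8773, 0.451 for 2310033P09Rik, 0.471 for Srsf11 and 0.34 for Rpf1. Among genes that fell, it was -0.502 for Scd3, -0.451 for Sorcs2, -0.422 for Slc6a9, -0.462 for Mcam, -0.391 for Tubb4a, -0.607 for Ass1, -0.454 for Notch3 and -0.421 for Ncan.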

How the results depend on the processing

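Except with the columns taken as named, the called genes kept their sign under every alternative in which they were tested, all 37 but for 36 with a filter at 1 FPKM. These alternatives reuse the libraries on which the 37 were called, so a kept sign follows in large part from the choice. Calls were lost all the same: of the 37, 26 stayed called with FPKM as deposited, 29 without a filter, 29 in 1 fit for all 72 libraries, 35 without a trend and 36 with a pseudocount of 1. Pseudocounts of 0.1 and 1 and the test without a trend left the 8 counts over all genes within 1.5 times, while 2 glucocorticoid-responsive genes in place of 1 were called with a pseudocount of 0.1. With FPKM as deposited 16 genes were lower (25 in the report), 0 were called at CT0, 1 at CT8 and 131 against LD. Without a filter 3 were called at CT0, 0 at CT4, 1 for diet by time and 136 against LD. With a filter at 1 FPKM 20 were higher and 1 was called at CT8. With limma's library weights 906 were higher and 1082 lower, with 2009 at CT0, 1144 at CT4, 103 at CT8, 13 for diet by time, 2007 against night and 1774 against LD. With 1 fit for all 72 libraries 70 were higher and 70 lower, with 2 at CT0, 55 at CT4 and 2 at CT8. Without both CT0 libraries of replicate 1, 46 were higher and 56 lower, and without these and -Trp CT4 replicate 2, 154 and 201; both were chosen after seeing the data. The cause of these changes was not tested.

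The replicate numbers were not taken as pairs, because not all same-numbered libraries of the 2 diets correlated at over 0.1. They did so in 7 of 9 pairs. Of 18 libraries, 12 correlated best with their own number among the 3 libraries of the other diet at that time. Whether the numbers mark pairs was not tested further. With the replicate block 177 genes were higher and 238 lower, 37 of the 37 among them, with 0 at CT0, 335 at CT4, 73 against night and 653 against LD.

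With each library left out in turn, 2 to 80 genes were higher, 7 to 137 lower, 0 to 3 called at CT0, 0 to 8 at CT4, 0 to 3 at CT8, 0 to 1 for diet by time, 23 to 59 against night and 1 to 700 against LD. In all, 195 were called without -Trp CT8 replicate 3, 172 without Ctrl CT0 replicate 1 and 103 without Ctrl CT8 replicate 2, but 24 without Ctrl CT8 replicate 1 or -Trp CT4 replicate 1, 22 without Ctrl CT4 replicate 3, 21 without Ctrl CT8 replicate 3, 20 without -Trp CT8 replicate 2, 18 without Ctrl CT0 replicate 3, 15 without Ctrl CT4 replicate 1 and 9 without Ctrl CT4 replicate 2. Against LD, 700 were called without Ctrl CT0 replicate 1 and 1 without -Trp CT8 replicate 2, Ctrl CT4 replicate 2, Ctrl CT8 replicate 1, Ctrl CT8 replicate 3 or -Trp LD ZT4 replicate 1.

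With the columns as named, the libraries called Ctrl DD at 0, 4, 8 and 12 h are placed as -Trp DD. Those called -Trp DD at these times are placed as Ctrl LD. In the day comparison the diets are thus exchanged and the light schedule differs by construction. The columns named DD at 16 and 20 h are placed as LD of the named diet. Those named Ctrl LD and -Trp LD at 0, 4 and 8 h are placed as -Trp LD and Ctrl DD. With the named columns 5561 genes were higher and 5040 lower, with 8904 at CT0, 8283 at CT4, 8097 at CT8, 193 for diet by time, 5871 against night and 11541 against LD. The log2 difference over the day then had the opposite sign for these genes: Arntl -0.30, Cry1 0.45, Dbp 0.60, Bhlhe41 0.24, Phyhd1 -0.86, Srsf11 -0.70, Rpf1 -0.034, Prodh -0.24, Ccnl1 -0.57, Gpr17 0.56, Scd1 0.47, Kcnj10 0.49, Hsd11b1 0.39, Ola1 0.33, Fads2 0.31, 9630013A20Rik 0.82, Scd2 0.41, Slc7a10 0.67, Ncan 0.17, Tac1 -0.55, Npy -2.74, Slc6a9 0.52, Ddc -0.30, Maoa -0.18, Htr2c 0.40, Hmgcs1 0.29, Dhcr7 0.40, Msmo1 0.41, Srebf2 0.28, Fads1 0.70, Olig1 1.12, Sox10 0.79, Agrp -4.90, Gm8773 -1.003, Scd3 0.17, Slc6a11 0.43, Apln 0.99, Sfxn5 0.61, Ass1 0.37, Ppap2b 0.39, Slc13a5 0.32, Mcam 0.29, Tubb4a 0.49, Slc7a5 0.58, Wars 0.48, Sult1a1 -0.73. Depth is unknown in FPKM, so no limit from counting can be given.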
